A study of Homo sapiens with 24 samples.

Results

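Divergent transcripts are RNAs that start near a gene's promoter and run away from it on the other strand. In this annotation many of them carry the gene's name followed by -DT. All count-table rows with such a name were taken, with 1 row not reported here, and kept where at least 10 raw reads were counted in at least 6 of the 12 day 14 libraries. This left 134 of 583 -DT features, called members below, out of 61248 features in the tables. The level at day 14 chose the members, so their being detected then is no finding, and only comparisons that the rule did not use are tested.

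The libraries came from H7, a human embryonic stem cell line. They compare 2 control lines with 2 lines in which BRAT1 was knocked out, each as undifferentiated cells (day 0) and after 14 days of ventral differentiation into neural progenitors (day 14). Each line had 3 biological replicates at each stage, which gives 6 libraries for control and 6 for knockout at day 14 and the same at day 0, 24 in all. The sources used here do not say how the knockouts were made, nor whether a line is 1 clone. RNA was selected for poly(A) tails and sequenced by Click-Seq, which builds libraries by chemical ligation of terminated cDNA.

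Most human promoters with many CpG dinucleotides are transcribed in both directions. The RNA on the upstream side is usually stopped early and destroyed: the Integrator complex cuts the nascent RNA through its endonuclease INTS11, and the nuclear exosome degrades the product. Poly(A) sites also end divergent transcription. BRAT1 binds INTS9 and INTS11, the catalytic pair of Integrator, and the series title speaks of cytoplasmic factors on which Integrator and the cleavage and polyadenylation machinery depend.

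In these tables reads lie mostly on the strand opposite to the named feature. Of 878 pairs of a coding gene and a noncoding feature annotated opposite it with at least 1000 reads in both rows together over the 12 day 14 libraries, the opposite row held more reads than the gene's own row in 727 (82.8%). It held at least 10-fold more in 465 pairs and at least 10-fold less in 58. Over 457 such pairs, chosen for a gene row of at most 10% of the opposite row, the row of the gene held 1.69% ± 0.232 (SD, n = 6) of the reads of the opposite row in day 14 controls. Thus a row named X-DT mostly holds RNA of the strand of X, the partner gene, and not of the divergent transcript itself. The row X holds RNA of the divergent strand over the exons of X. The percent was 2.46% ± 0.549 (n = 6) in day 14 knockouts, a difference of 0.767 percentage points (exact two-sided permutation test over libraries, p = 0.0108). The groups overlapped, with 1.30% to 1.98% in controls and 1.83% to 3.11% in knockouts. The test treats libraries of the same line as independent. The part of this percent in the results below was not tested beyond a fit that carries it as a covariate. At day 0 it ranged more widely, from 1.75% to 7.63%, and the 4 libraries lettered A had the lowest range, 1.75% to 2.07%.

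Sequences around the members' starts show what kind of promoter they share. In the RefSeq GRCh38 promoter windows (250 bases before to 50 after the start), 99 of the 134 members had an entry. Their median GC content was 67.7% and the median number of CpG dinucleotides 29, against 58.3% and 14 over all 27305 windows. The 110 partner genes with an entry had medians of 64.5% and 27, so high GC and CpG are not particular to the members. A GC box (GGGCGG on either strand) stood in 71.7% of the members' windows, in 67.3% of the partners' and in 44.6% of all windows. A CCAAT box (CCAAT on either strand) stood in 31.3% of the members' windows, 44.55% of the partners' and 35.7% of all. For a TATA box (TATAAA on either strand) the shares were 2.02%, 6.36% and 11.9%. These are matches of letters, not sites of binding. The following 5 stretches are the longest runs free of GENCODE 29 exons within the 250 bases before the RefSeq start, for 1 member that rose in the knockouts, 3 that fell and 1 of the most abundant. Each is written 5′ to 3′ on the strand of the -DT feature, with GC boxes and CCAAT boxes in capitals.
ZNF132-DT, plus strand, chr19:58440223-58440447: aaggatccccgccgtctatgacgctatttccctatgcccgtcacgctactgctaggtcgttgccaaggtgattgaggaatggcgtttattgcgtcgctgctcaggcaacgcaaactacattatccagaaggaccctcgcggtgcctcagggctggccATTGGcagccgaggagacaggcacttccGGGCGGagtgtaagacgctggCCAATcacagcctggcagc
CFAP58-DT, minus strand, chr10:104353576-104353763: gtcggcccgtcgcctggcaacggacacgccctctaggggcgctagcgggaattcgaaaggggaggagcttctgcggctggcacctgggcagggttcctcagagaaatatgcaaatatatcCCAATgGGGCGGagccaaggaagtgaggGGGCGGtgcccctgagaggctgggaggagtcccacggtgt
B4GAT1-DT, plus strand, chr11:66347741-66347949: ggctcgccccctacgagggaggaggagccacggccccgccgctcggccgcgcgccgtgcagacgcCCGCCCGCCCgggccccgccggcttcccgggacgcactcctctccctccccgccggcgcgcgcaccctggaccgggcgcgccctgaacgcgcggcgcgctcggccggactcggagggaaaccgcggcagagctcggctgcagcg
PDXP-DT, minus strand, chr22:37658378-37658627: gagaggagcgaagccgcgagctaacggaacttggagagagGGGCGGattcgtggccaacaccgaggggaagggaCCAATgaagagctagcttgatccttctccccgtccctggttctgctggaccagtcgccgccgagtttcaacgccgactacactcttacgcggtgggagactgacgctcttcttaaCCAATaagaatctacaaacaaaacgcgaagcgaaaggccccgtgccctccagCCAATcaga
WDR5B-DT, plus strand, chr3:122416052-122416205: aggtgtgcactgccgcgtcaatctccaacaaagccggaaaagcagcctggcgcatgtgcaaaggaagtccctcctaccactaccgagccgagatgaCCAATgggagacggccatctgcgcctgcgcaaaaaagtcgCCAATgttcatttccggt
The ZNF132-DT stretch holds 1 GC box and 2 CCAAT boxes, and the PDXP-DT stretch 1 GC box and 3 CCAAT boxes. The B4GAT1-DT stretch is 81.8% GC and holds 38 CpG dinucleotides but no CCAAT box. For AFDN-DT, the member with the largest rise, the promoter table had no entry. The 265 bases of its GENCODE 29 transcript that lie opposite an exon of the noncoding gene ENSG00000285212 are shown instead, since reads of the opposite strand over them are counted under AFDN-DT. No poly(A) signal AATAAA was found there on either strand.
AFDN-DT, minus strand, chr6:167824542-167824806: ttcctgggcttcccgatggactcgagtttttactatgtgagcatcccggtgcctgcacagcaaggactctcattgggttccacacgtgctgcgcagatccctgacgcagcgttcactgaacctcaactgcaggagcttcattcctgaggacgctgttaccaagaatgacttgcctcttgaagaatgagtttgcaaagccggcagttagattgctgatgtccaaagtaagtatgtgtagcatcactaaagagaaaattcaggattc

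Depth at day 14 was 2228736 to 3726227 counts per library, and at day 0 1407832 to 2143871. The members took 1.08% to 1.15% of the counts in day 14 controls and 0.934% to 1.11% in day 14 knockouts. At day 0 they took 1.21% to 1.55% in controls and 1.22% to 1.6% in knockouts. The BRAT1 row, the reading of the targeted gene used here, which like other rows mostly holds the other strand, held 186 to 317 CPM (reads scaled to the library's total count) in day 14 controls, 7.66 to 16.9 in knockout line 1 and 71.2 to 86.8 in knockout line 2. At day 0 it was at most 2.91 CPM in controls and 6.32 in knockouts, so it says nothing there. At day 14 both knockout lines were below all controls but kept reads, and the row is no direct reading of BRAT1 mRNA. Of the stem cell markers, the rows opposite POU5F1 and TDGF1 summed to 482 to 779 CPM at day 0 and at most 1.88 at day 14. Under their own names 4 of 6 stem cell markers were higher in controls at day 0, and LIN28A (11.2 and 61.8 CPM) and DPPA4 (2.81 and 10.8 CPM) were higher at day 14. The rows opposite PAX6 and VIM, markers of neural progenitors, summed to 81.5 to 700 CPM at day 0 and 3827 to 7163 at day 14.

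What a member's row holds depended on what was annotated on the other strand. The exons of 130 members could be placed in GENCODE 29 (GRCh38), where the starts of member and partner lay a median of 165 bases apart and 117 lay within 1000 bases. An exon of a coding gene other than the partner lay opposite at least 100 exonic bases in 40 members, an exon of the partner in 33, and an exon of another noncoding gene in 3. No exon lay opposite in 54, and 4 members (LRRC58-DT, MICB-DT, ACAD9-DT and ZNF496-DT) could not be placed. Of all -DT features with another coding gene's exon opposite, 40 of 49 (81.6%) were members. The share was 33 of 70 (47.1%) with the partner's exon opposite and 54 of 433 (12.5%) with none. Median day 14 levels followed the same order, at 45.6, 2.55 and 0.349 CPM over all -DT features of the 3 classes. CPM is not scaled by length, so these levels say how many reads a row held and not how many molecules.

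**Figure D1:**
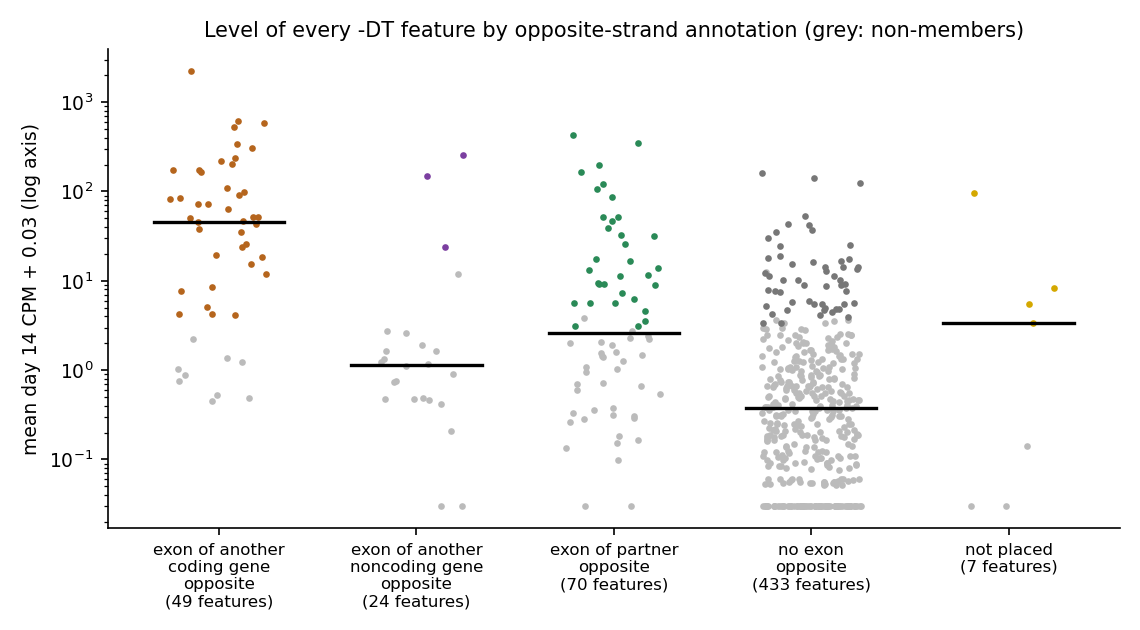
Mean CPM over the 12 day 14 libraries plus 0.03 (log axis) for each of 583 -DT features, grouped by what GENCODE 29 has on the opposite strand; coloured points are the 134 members, grey points the other features, and bars the median of all features of a class. The class with another coding gene's exon opposite has the highest median, 45.6 CPM, and the class with no exon opposite the lowest, 0.349 CPM.

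The most abundant members were rows that lie opposite an exon of a neighbouring coding gene. MVP-DT, named after the major vault protein, lies opposite the gene of the zinc finger transcription factor MAZ over 1536 bases. Its level was lowest at 2179, median 2462 and highest at 2590 CPM in day 14 controls, and 1939, 2015 and 2260 CPM in knockouts. The 2 groups overlapped, and the log2 fold change of -0.23 (SE 0.11) did not pass the test (adjusted p = 0.122, edgeR's quasi-likelihood test with Benjamini-Hochberg adjustment, as below). This 1 row held 21.3% of all member counts at day 14, while the MAZ row held 18.2 CPM and the MVP row 4.49 CPM.

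The next were WDR5B-DT opposite KPNA1, an importin alpha, at 653 ± 24.1 CPM in day 14 controls and 573 ± 120 in knockouts (SD, n = 6 each). USP34-DT, opposite the exportin gene XPO1, was at 599 ± 40.4 and 579 ± 94.5 CPM. Both groups overlapped for these 2 rows, and neither passed the test (adjusted p = 0.27 and 0.758). EOGT-DT, opposite the Golgi gene TMF1, fell from 590 ± 79.9 to 460 ± 54.4 CPM, and TMED2-DT, opposite an exon of its partner, a vesicle cargo receptor gene, from 508 ± 58.2 to 360 ± 89.7 CPM. The EOGT-DT call (adjusted p = 0.0483) was lost in 15 of 24 alternatives, with adjusted p of up to 0.787, and in 8 of 12 fits without 1 library. The TMED2-DT call (adjusted p = 0.0215) was lost in 7, among them without knockout line 2 A (adjusted p = 0.0547). Together the 5 rows held 41.9% of member counts. Over the 40 members with another coding gene's exon opposite, the member's row was higher than the row of that gene in 32 and at least 10-fold higher in 20. Only the member's row had to reach the count minimum, which favours such an excess.

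In the 54 members with no exon opposite, the levels were lower, with a median of 10.2 CPM and a highest value of 160 CPM. Of these, 26 lay within the body of a coding gene on the other strand, 10 of them within the partner's, and 28 lay opposite no coding gene's body. Of the 379 non-members of this class, 52 lay within such a body. In 106 of 134 members the -DT row held more reads than the row of the partner, with a median ratio of 4.62. The rule set a minimum for the -DT row and none for the partner's row, so this excess is in part built in.

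At day 14 the question was whether loss of BRAT1, a partner of the Integrator endonuclease, went with a change in these rows. AFDN-DT rose most, 8.36-fold by the fitted log2 change, followed by TMEM161B-DT, ZRANB2-DT and ZNF132-DT. RPAP3-DT, CFAP58-DT, ERICH2-DT and B4GAT1-DT fell most. For TMEM161B-DT, ZRANB2-DT, ZNF132-DT, RPAP3-DT and CFAP58-DT the count minimum was met mainly in the genotype where they were high (below). Of 131 members tested, 13 rose and 22 fell, 26.7% in all, where 21.7% of all 11408 features tested were called. By direction, 9.92% of members rose against 11.0% of all features, and 16.8% fell against 10.7%. The median log2 fold change was -0.16 over the members and 0.07 over all features, with 56 members above 0 and 75 below. A general rise of rows named -DT was not seen. The share called in either direction lay near the background, while the share that fell was above it, a difference that was not tested. Since these rows mostly hold the strand of the partner, they give no direct reading of the divergent transcripts.

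Members with 10 reads in at least 3 libraries of 1 genotype and in fewer than 3 of the other are counted apart, since the rule leaned on 1 genotype for them. They were 6 with more such libraries in controls (3 of them called: CFAP58-DT, UVRAG-DT and RPAP3-DT) and 5 with more in knockouts (3 called: ZRANB2-DT, TMEM161B-DT and ZNF132-DT). Of the 123 members with 10 reads in at least 3 libraries of each genotype, 121 were tested, of which 10 rose (8.26%, against 9.64% of all such features) and 19 fell (15.7%, against 10.5%). A change of at least 2-fold was called in 16 members, 12.2% of those tested, against 12.5% of all features. The CPM of the 6 knockout and the 6 control libraries did not overlap in 18 members, 8 higher and 10 lower, or 13.7% against 10.7% of all features. Both the 2-fold and the non-overlap shares include members for which the rule leaned on 1 genotype, and were not computed without them.

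**Figure D2:**
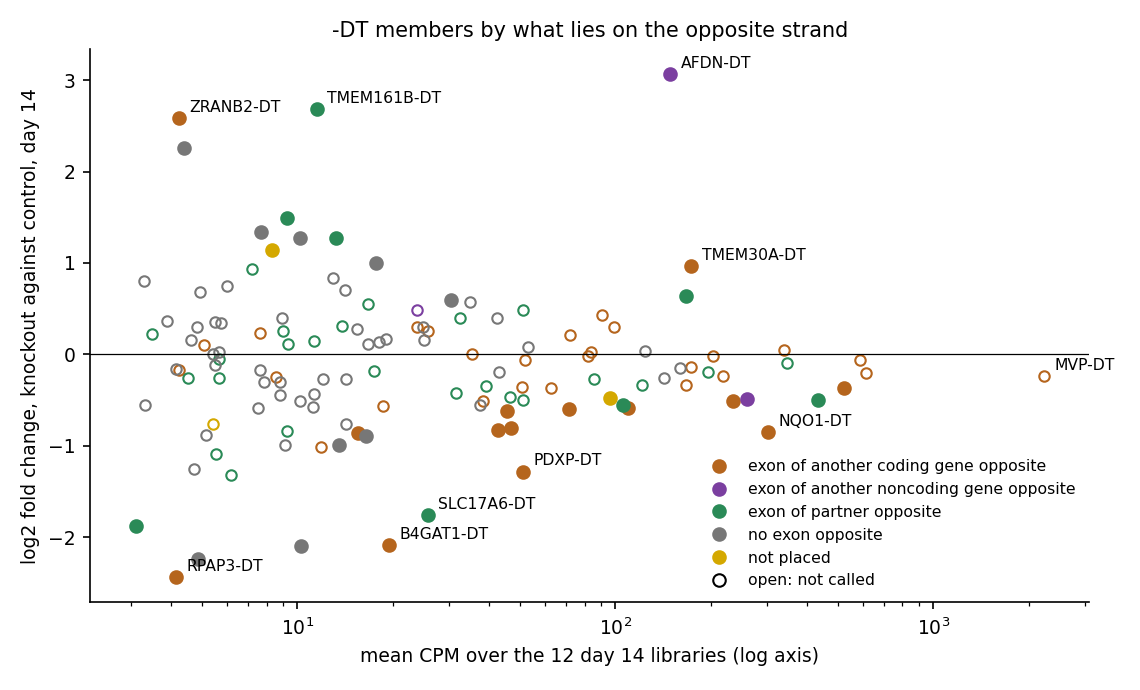
Fitted log2 fold change of knockout against control at day 14 (vertical) against mean day 14 CPM (horizontal, log axis) for the 131 members tested, coloured by what lies on the opposite strand; filled points were called. AFDN-DT stands alone at high level with a large rise, and of the 24 members at 100 CPM or more 3 rose and 7 fell.

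Marker rows of cell types also differed with genotype in the same libraries. Rows under a marker's own name mostly hold the other strand, and rows opposite it mostly the marker's own. Of 4 neuron markers tested under their own names 3 were higher in knockouts (DCX, STMN2 and MAP2), and the summed level of the 5 listed was 26.9 to 68.6 CPM in controls and 82.2 to 218 in knockouts, with TUBB3 the lowest at 1.74 and 1.53 CPM. Of 7 neural progenitor markers tested 4 were higher, with sums of 272 to 485 and 583 to 1116 CPM. The 2 rows opposite PAX6 and VIM summed to 4823 to 7163 CPM in controls and 3827 to 5553 in knockouts, with log2 changes of -1.13 and -0.27 that did not pass the test (adjusted p = 0.143 and 0.0763). Of 3 neural crest markers tested under their own names 2 were lower (SOX10 and TFAP2B), with sums of 70.4 to 111 and 10.8 to 42.0 CPM. No listed marker of these 3 types was at 0 in both genotypes. The row opposite FOXD3 went from 48.1 to 0.915 CPM (log2 change -5.72, adjusted p = 9.05e-09). In day 0 stem cells it was higher still, at 79.9 CPM in controls and 106 in knockouts, so it is not particular to neural crest here. The row opposite TFAP2A, at most 0.0809 CPM in the means at day 0, went from 27.8 to 37.4 CPM and did not pass the test (log2 change 0.42, adjusted p = 0.195). Mesenchyme markers had no call of 3 tested under their own names, while the 2 rows opposite them were both lower. The row opposite ACTA2 went from 153 to 35.4 CPM, with 21.7 in controls and 32.85 in knockouts at day 0. That opposite THY1 went from 127 to 65.3 CPM, with 1864 and 2217 at day 0, so it is not particular to mesenchyme here. The part of these markers in the members' changes was not tested, and in bulk RNA fewer cells of a type and less RNA per cell cannot be told apart.

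AFDN-DT rose in both knockout lines. Its partner AFDN encodes afadin, a scaffold of adherens junctions, and the row lies at chr6:167823876-167826709 on the minus strand, its start 213 bases from that of AFDN. The 6 control libraries had 22.0, 26.7 and 27.1 CPM in line 1 and 41.2, 38.6 and 32.3 in line 2. The 6 knockout libraries had 261, 228 and 291 CPM in line 1 and 320, 190 and 306 in line 2. The lowest knockout library was well above the highest control, and the means were 31.3 ± 7.44 and 266 ± 49.6 CPM. The log2 fold change was 3.06 (SE 0.17, adjusted p = 7.98e-14), and the call held under each of the 24 alternatives run, with adjusted p between 8.84e-71 and 0.0158.

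Both neighbouring rows at this locus also rose, by less. ENSG00000285212 is a noncoding gene on the plus strand, so its row mostly holds minus-strand RNA, the strand of AFDN-DT. It went from 58.4 ± 16.5 to 133 ± 19.7 CPM (log2 change 1.17 with SE 0.18, adjusted p = 1.95e-05). The AFDN row went from 10.9 ± 4.5 to 27.0 ± 9.03 CPM (log2 change 1.27 with SE 0.30, adjusted p = 0.00293). Rows holding mostly 1 or the other strand at this locus were thus higher in day 14 knockouts. ENSG00000285212 spans chr6:167796647-167825145, and the AFDN row covers all exons of AFDN. Row totals therefore do not say how near the AFDN start the reads lie, nor whether they belong to 1 or several RNAs. At day 0 AFDN-DT was already detected, at 27.3 ± 17.9 CPM in controls and 21.9 ± 32.8 in knockouts, without a call (log2 change -0.33, adjusted p = 1.00). The 4 day 0 libraries lettered C had between 0 and 11.7 CPM, and the other 8 between 5.61 and 86.6. The difference between the day 14 and the day 0 change, 3.47 on the log2 scale, did not pass the interaction test (adjusted p = 0.0707).

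**Figure D3:**
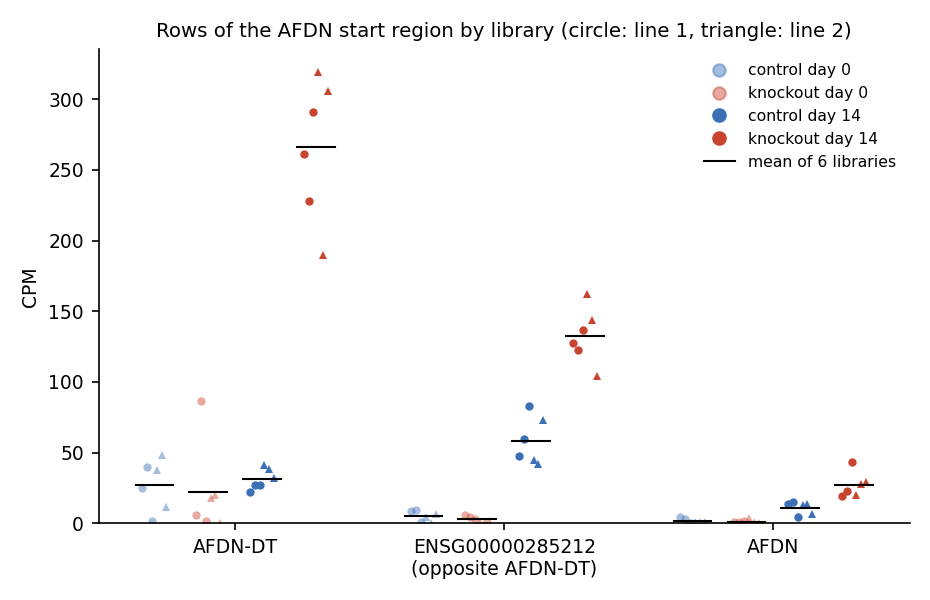
CPM of 3 rows of the AFDN locus in each of the 24 libraries. Circles are line 1, triangles line 2, pale points day 0, full points day 14, and bars the mean of 6 libraries. AFDN-DT lies between 190 and 320 CPM in the 6 day 14 knockout libraries and between 22.0 and 41.2 in the day 14 controls.

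The other rises of over 2-fold in members with mean CPM of at least 2 were at low levels. TMEM161B-DT, opposite an exon of its partner, a transmembrane protein gene, had 0.294 to 7.11 CPM in controls (median 2.30) and 12.3 to 28.9 in knockouts (median 19.3). The groups did not overlap (log2 change 2.69 with SE 0.50, adjusted p = 0.000316), while the TMEM161B row was at 46.0 ± 10.5 and 41.6 ± 13.2 CPM (adjusted p = 0.685). ZRANB2-DT, named after an RNA-binding zinc finger protein gene and opposite an exon of the neuronal adhesion gene NEGR1, had 0 to 1.91 CPM in controls (median 1.32) and 3.72 to 13.7 in knockouts (median 6.71). No control library reached 10 reads for this row, and the log2 fold change was 2.58 (SE 0.61, adjusted p = 0.00292). For both rows the knockouts stood apart from the controls in each line. The rule leaned on the knockouts for both, and such a choice favours a rise.

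ZNF132-DT, whose stretch before the start is printed above, had 0 reads in 3 control libraries and 3.65 to 5.25 CPM in 5 of 6 knockouts. The remaining knockout library, line 2 C, had 20.7 CPM, and the log2 fold change of 2.26 (SE 0.76, adjusted p = 0.0356) was called in 13 of 23 alternatives. For this row too the rule leaned on the knockouts. ST8SIA5-DT, opposite its partner, a sialyltransferase gene expressed in brain, went from 4.88 ± 3.06 to 13.6 ± 5.43 CPM (log2 change 1.5 with SE 0.42, adjusted p = 0.0106). TOX-DT, opposite the gene of the HMG-box factor TOX, went from 7.67 ± 3.42 to 18.7 ± 5.14 CPM (log2 change 1.27 with SE 0.34, adjusted p = 0.00689). RANBP3-DT and TTC12-DT, both with no exon opposite, went from 5.89 ± 3.25 to 14.6 ± 5.30 CPM and from 4.30 ± 3.19 to 11.1 ± 3.24 CPM. The fitted rises were 2.41-fold (adjusted p = 0.0181) and 2.53-fold (adjusted p = 0.0357). These calls were less steady: that of TTC12-DT was lost in 15 of 24 alternatives, 7 of them without 1 library (adjusted p = 0.0523 to 0.0934), and that of RANBP3-DT in 7, among them without knockout line 2 C (adjusted p = 0.0592). Without knockout line 1 A ST8SIA5-DT missed the threshold (adjusted p = 0.0518). Without 1 library ZNF132-DT lost its call in 5 of 12 fits, and its log2 change was 1.64 without knockout line 2 C and 2.88 without control line 1 C. The 5 further rises were TMEM30A-DT, HEATR5A-DT, DCTN6-DT, CHKB-DT and ACAD9-DT, with log2 fold changes of 0.60 to 1.14.

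**Figure D4:**
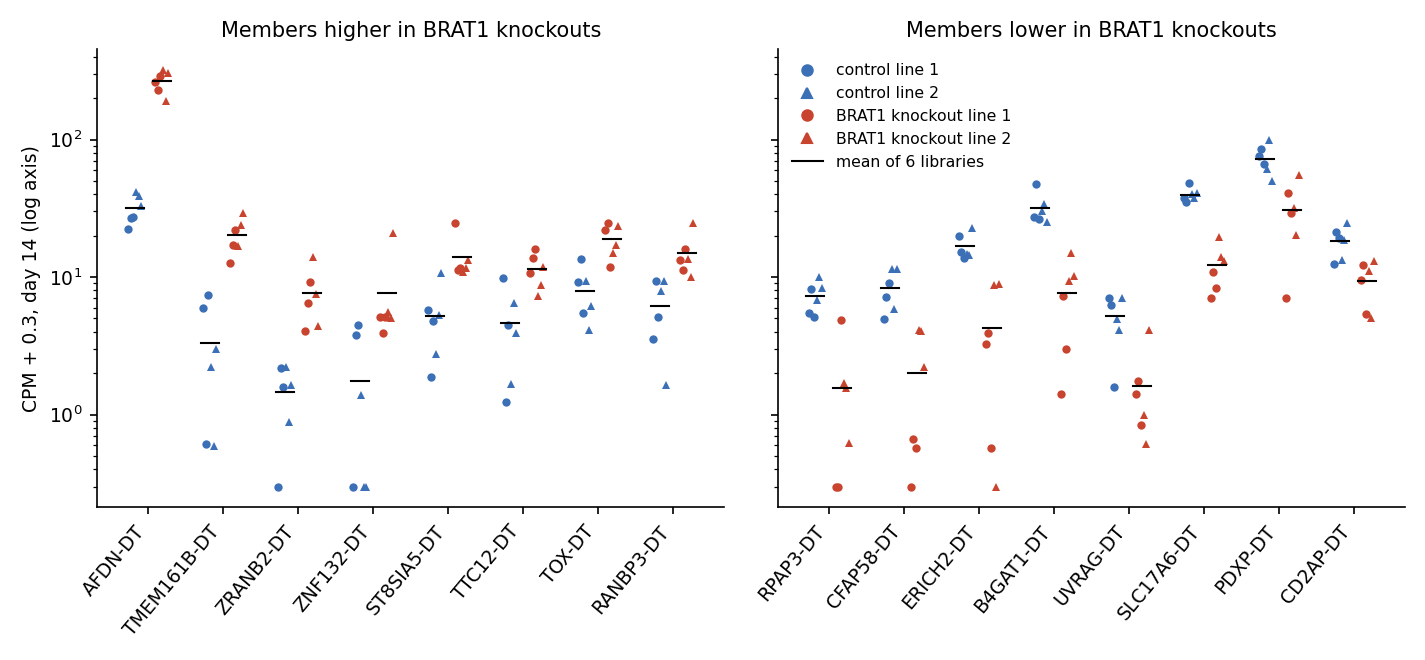
CPM plus 0.3 (log axis) of the 8 members with the largest rises and the 8 with the largest falls in each day 14 library; blue control, red knockout, circles line 1, triangles line 2, bars the mean of 6 libraries. Knockout and control libraries do not overlap for AFDN-DT, TMEM161B-DT, ZRANB2-DT, ST8SIA5-DT and RANBP3-DT among the rises and for RPAP3-DT, CFAP58-DT, ERICH2-DT, B4GAT1-DT and SLC17A6-DT among the falls. For TMEM161B-DT, ZRANB2-DT, ZNF132-DT, RPAP3-DT, CFAP58-DT and UVRAG-DT the rule leaned on the genotype where they were high.

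Among the falls, SLC17A6-DT had the smallest adjusted p. Its partner encodes VGLUT2, the vesicular glutamate transporter of excitatory neurons, whose exon lies opposite 149 bases of the row. Controls had 34.6, 38.6 and 47.8 CPM as the lowest, median and highest library, and knockouts 6.70, 11.6 and 19.2. The groups did not overlap (log2 change -1.76 with SE 0.25, adjusted p = 7.98e-06), and both lines were lower, at 8.44 CPM in knockout line 1 and 15.3 in line 2. All 12 day 0 libraries had 0 reads, which allows up to 0.143 CPM over their summed counts.

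B4GAT1-DT, named after a glucuronyltransferase of dystroglycan and opposite an exon of the nucleoside transporter gene SLC29A2, had 24.7, 28.4 and 47.2 CPM in controls (lowest, median, highest). Knockouts had 1.12, 8.01 and 14.7 CPM, below every control library. The log2 fold change was -2.08 (SE 0.38, adjusted p = 0.000276), and the call held under each of the 24 alternatives run. Counts under SLC29A2 itself, mostly RNA of the B4GAT1-DT strand, did not pass the test (log2 change 0.53, adjusted p = 0.126). PDXP-DT, opposite an exon of SH3BP1, had 49.4, 70.5 and 98.3 CPM in controls and 6.70, 30.2 and 55.0 in knockouts. The groups overlapped in 1 knockout library, line 2 C (log2 change -1.28 with SE 0.31, adjusted p = 0.00558).

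ERICH2-DT, CFAP58-DT and RPAP3-DT fell from low levels. ERICH2-DT, with no exon opposite and a start 13018 bases from that of its partner, had 13.6 to 22.4 CPM in controls and 0 to 8.59 in knockouts (log2 change -2.10 with SE 0.57, adjusted p = 0.0109). CFAP58-DT, named after a gene of cilia and flagella, had 4.62 to 11.2 and 0 to 3.85 CPM (log2 change -2.24 with SE 0.63, adjusted p = 0.0105). RPAP3-DT, named after a cofactor of RNA polymerase assembly and opposite the cAMP sensor gene RAPGEF3, had 4.84 to 9.72 and 0 to 4.56 CPM (log2 change -2.44 with SE 0.66, adjusted p = 0.00855). Without knockout line 1 C the RPAP3-DT log2 change was -3.45. None of the 3 overlapped between genotypes. For CFAP58-DT, RPAP3-DT and UVRAG-DT (next) the rule leaned on the controls, and such a choice favours a fall. UVRAG-DT, opposite an exon of its partner, an autophagy gene, went from 4.88 ± 2.11 to 1.32 ± 1.29 CPM (log2 change -1.88 with SE 0.64, adjusted p = 0.0356), and 16 of 23 alternatives lost this call, 9 of them without 1 library (log2 change -2.54 without knockout line 2 C). CD2AP-DT, named after an adaptor of the actin cytoskeleton, went from 18 ± 4.62 to 9.12 ± 3.47 CPM (log2 change -0.99 with SE 0.32, adjusted p = 0.0248). Its call was lost in 4 of 12 fits without 1 library (adjusted p = 0.0515 to 0.0642).

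The 14 further falls had log2 fold changes of -0.89 to -0.37 at mean levels of 15.5 to 525 CPM. NQO1-DT, opposite NOB1, a nuclease of ribosome maturation, had the smallest adjusted p among them and was singled out after its values were seen. It had 362, 378 and 427 CPM in controls (lowest, median, highest) and 177, 226 and 258 in knockouts, with no overlap (log2 change -0.85 with SE 0.13, adjusted p = 2.25e-05). The others were AHI1-DT, MIF4GD-DT, ZNF8-DT, SNRPA1-DT, NCK1-DT, MFF-DT, STX5-DT, PGLS-DT, DDX19A-DT, TMED2-DT, GARS1-DT, LRRC58-DT and EOGT-DT. By class, 12 of the 40 members opposite another coding gene's exon fell and 2 rose, with a median log2 fold change of -0.23. In the class opposite the partner's exon 4 fell and 4 rose of 32 tested (median -0.19), and in that with no exon opposite 4 fell and 5 rose of 53 (median 0.02). Over all features tested, 10.7% fell and 11.0% rose. The difference between classes was not tested, and features of like position that are not named -DT were not counted.

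How many members were called changed with the fit. Without control line 2 it was 14 members, without control line 1 or without knockout line 2 20 each, and with counts summed per line 18. With the percent of reads on the other strand as a covariate 16 members were called, 9 higher and 7 lower, of which 15 were among the 35. In 1 fit of all 24 libraries 3 of the 35 remained: AFDN-DT (adjusted p = 0.0158), B4GAT1-DT (adjusted p = 0.028) and NQO1-DT (adjusted p = 0.00632).

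The partner's row was tested for 77 members, of which 7 rose and 1 fell (WDR5B, -1.41, adjusted p = 0.0071), or 10.4% against 21.7% of all features. Partner rows were low, with a median of 4.22 CPM at day 14 against 16.5 for the members' own rows. No background of like level was counted, so the lower share is not read as a trait of partners. Of 75 members tested together with their partner, 2 had both called: AFDN-DT with AFDN, both higher, and AHI1-DT with AHI1, a gene of the primary cilium, in opposite directions. AHI1-DT went from 21.3 to 11.5 CPM (log2 change -0.89, adjusted p = 0.0157) and the AHI1 row from 3.62 ± 1.09 to 9.43 ± 4.12 CPM (log2 change 1.35 with SE 0.43, adjusted p = 0.0242). In 15 members only the member was called and in 6 only the partner. These rows share their libraries, and no test of the pairs was made.

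Members with a zinc finger partner were 9, of 24 such -DT features. ZNF132-DT rose (above) and ZNF8-DT fell, from 54.4 ± 7.32 to 30.9 ± 8.67 CPM with no overlap (log2 change -0.83 with SE 0.20, adjusted p = 0.00358). It lies opposite an exon of ZNF544. ZNF230-DT, ZNF691-DT, ZNF582-DT, ZNF470-DT and ZNF584-DT had log2 fold changes of 0.30, 0.21, 0.11, 0.36 and 0.01 and did not pass the test (smallest adjusted p = 0.185). ZNF567-DT and ZNF496-DT were not tested for want of counts, with 1.72 ± 1.24 and 6.63 ± 3.47 CPM for the first and 3.39 ± 1.12 and 3.26 ± 1.37 for the second in controls and knockouts. None of the 10 -DT features named after developmental transcription factors was a member. PRDM16-DT came nearest, with 10 reads in 4 libraries and 1.89 ± 1.14 CPM in controls and 5.28 ± 3.30 in knockouts, followed by LHX1-DT with 0.657 ± 1.12 and 3.53 ± 2.28.

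Genes of the machinery that ends or removes divergent transcripts were read under their own names, which here mostly hold the other strand. Of 18 listed Integrator genes with BRAT1 and WDR73, 10 were tested, 1 rose (INTS11, log2 change 0.42, adjusted p = 0.0449) and 1 fell (BRAT1, -2.47, adjusted p = 0.0111). The exosome list had 21 genes, of the nuclear exosome, its adaptors and other factors of nuclear RNA, and 14 were tested. Of these 1 rose (XRN2, a nuclear exonuclease that is not part of the exosome, 0.67, adjusted p = 0.0308). The exosome gene EXOSC9 fell (-0.64, adjusted p = 0.00802). Of 12 tested of 18 cleavage and polyadenylation genes 1 rose (CPSF2, 1.05, adjusted p = 0.0446). Among annotated rows opposite genes of these lists, which mostly hold the strand of the listed gene, 5 were tested for Integrator with no call. Of 8 for the exosome list 1 was lower (opposite the cap-binding gene NCBP2, -0.54, adjusted p = 0.0399), and of 5 for the cleavage and polyadenylation list 1 was higher (SFT2D3 opposite WDR33, 0.84, adjusted p = 0.00507). Neither CSTF3-DT nor PAPOLA-DT, the only -DT features named after genes of these 3 lists, was a member.

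Lines of 1 genotype gave few called differences in these rows. These tests set 3 libraries against 3 and so detect less than the 6 against 6 of the genotypes. Between the knockout lines 0 of 127 members tested were called by edgeR at day 14, and 0 by DESeq2, with 14 at an unadjusted p under 0.05 by each, where 0.402% of all features were called. Between the control lines 1 of 129 was called, against 0.244% of all features. FBXO38-DT, named after a ubiquitin ligase subunit and opposite an exon of SPINK13, had 4.62, 6.92 and 4.2 CPM in control line 1 and 28.4, 18.3 and 32.8 in line 2 (log2 change 2.32 with SE 0.40, adjusted p = 0.00397). The 6 knockout libraries had 6.27 to 12.3 CPM, close to control line 1. Without control line 1 C this call was lost.

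At day 0 no difference by genotype was called. Of 79 members tested, 0 were called by edgeR and 0 by DESeq2, with 2 and 5 at an unadjusted p under 0.05, and 0.0% of all 4832 features were called. The median log2 fold change was 0.01 over the members and -0.01 over all features. At this depth differences of the size seen at day 14 may go undetected, since day 0 libraries were shallower and spread more. The change at day 14 differed from that at day 0 in 1 of 124 members tested, NQO1-DT (interaction -1.13, SE 0.26, adjusted p = 0.0215), where 1.47% of all features were called. NQO1-DT at day 0 had 209 to 438 CPM in controls and 334 to 442 in knockouts.

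Levels of the members also differed between the stages. This is a description, since the rule used day 14. The control mean at day 0 was at least 2-fold that at day 14, on CPM plus 0.3, in 13 members and at most 1 in 2 in 50, with a median log2 ratio of -0.57. Over all 11294 features chosen and tested in the same way the median was -1.36. CD2AP-DT had the largest excess at day 0, 167 ± 41.4 against 18 ± 4.62 CPM, followed by TMEM30A-DT with 817 ± 523 against 117 ± 27.9. HNRNPD-DT and H2AZ1-DT, opposite exons of an RNA-binding protein gene and of the histone variant gene H2AZ1, had 54.8 ± 20.5 against 10.8 ± 3.83 CPM and 1676 ± 811 against 358 ± 35.3 CPM. The H2AZ1-DT libraries lettered A were the lowest at day 0, 738 to 853 CPM, and the others 1387 to 2626. GALNT7-DT, within the body of its partner, had 195 ± 78.2 against 45.7 ± 7.42 CPM.

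In the other direction, SLC17A6-DT, CHKB-DT, TRMT61A-DT and TMEM14B-DT had 0 reads in all 6 day 0 control libraries, with 39.5 ± 4.58, 11.7 ± 2.01, 9.24 ± 3.98 and 6.60 ± 2.27 CPM at day 14. No fold is given against 0. PIWIL2-DT, named after a gene of the piRNA pathway, had 0.199 ± 0.317 and 17.8 ± 4.21 CPM. EPB41L4A-DT had 0.0809 ± 0.198 and 11.9 ± 2.34 CPM. The control libraries of both stages did not overlap in 39 members, 11 higher and 28 lower at day 0. The same count was not made over all features, so it is not read as a trait of the members. By class, the median ratio of day 0 to day 14 in controls was 0.850 with another coding gene's exon opposite, 0.678 with the partner's and 0.449 with none.

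**Figure D5:**
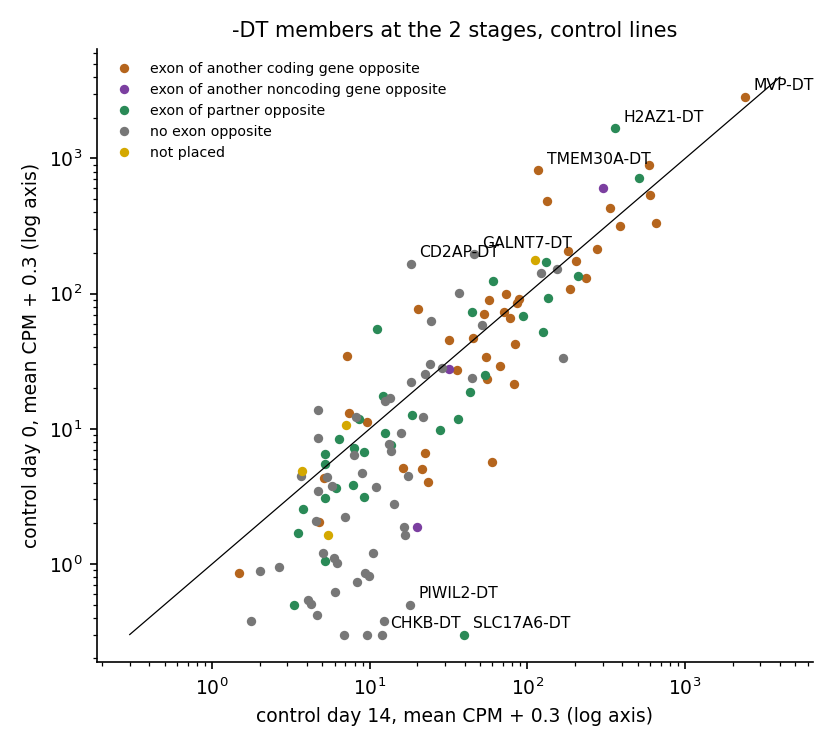
Mean CPM plus 0.3 of each of the 134 members in the 6 control libraries of day 0 (vertical) against those of day 14 (horizontal), both on log axes, coloured by what lies on the opposite strand; the line marks equal levels. CD2AP-DT and TMEM30A-DT lie farthest above the line and SLC17A6-DT farthest below, and most of the members at the bottom have no exon opposite.

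The count minimum divides a continuous range. Just inside were UVRAG-DT, ZFAND2A-DT and RSL1D1-DT, with 10 reads in 6 libraries and 3.49 ± 1.37 CPM in controls and 2.69 ± 1.09 in knockouts for ZFAND2A-DT, and 3.93 ± 2.72 and 2.7 ± 2.2 for RSL1D1-DT. Just outside were RNF32-DT, VPS13B-DT and PPM1K-DT, with 10 reads in 5 libraries and means of 3.52, 3.31 and 2.96 CPM over the 12 libraries. Of the 449 non-members, 79 had no read at day 14 and 144 reached 10 reads in at least 1 library. SRP14-DT had the highest mean among them in knockouts, 23.0 ± 49.1 CPM, with 10 reads in 3 libraries. Of the members, 83 reached the minimum in all 12 libraries and 48 had a mean under 10 CPM.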

How the data were processed

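Poly(A)-selected RNA of 24 libraries (6 per genotype and day) was sequenced by Click-Seq, per the labels' protocols. The authors deposited raw read counts per feature for each library, in 1 table each. Per the submitters' processing notes the tools were bcl2fastq 2.20.0, STAR 2.7.9a, featureCounts of Subread 2.0.1, DESeq2 1.34.0 and R 3.5.1, with GRCh38; no source used here gives the annotation release or strand setting. A read of 1 strand is counted under the feature of the other, so overlapping genes cannot be separated.

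CPM is a row's count divided by the library's total. Genotypes were compared within a day by edgeR 4.0.16 (R 4.3.3; filterByExpr, TMM, robust quasi-likelihood fit) over all features, with Benjamini-Hochberg adjustment and a threshold of 0.05. Its p-values take the 6 libraries of a genotype as independent. They come from 2 lines, so differences between lines are not fully told apart from genotype. The same test compared lines of a genotype and, over all 24 libraries, the genotype by day interaction. DESeq2 1.42.0, RLE scaling, no filter, the replicate block, sums per line, all libraries in 1 fit, the covariate, and leaving out each library or line were alternatives. Replicates are called biological by the labels. Positions are from GENCODE 29 by gene name, promoter windows from RefSeq, both on GRCh38. Python 3.11.15, pandas 2.3.3 and scipy 1.17.1 were used. Tested on simulated counts of the day 14 comparison with 10215 features, the fit recovered 30.1% of 2-fold, 85.9% of 4-fold and 97.7% of 8-fold changes, with 9 of 10035 unchanged features called. The simulated libraries were independent, had no differences between lines and held few changed features. False calls from line differences were therefore not measured.

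Members and lists were chosen with earlier results of these data known. Named members were the 8 largest rises and falls among those called with a mean of at least 2 CPM and 1 direction in all 4 pairings of a knockout with a control line, the 5 most abundant per day, up to 3 called between lines, those with a listed partner, and 3 on each side of the count minimum. The rest were chosen after their values were seen.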

Additional observations from a re-analysis of the deposited data

Results flagged for a closer look

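Dixon's test looks for 1 library far from the other 5 of its group, and was run on 70 groups: the 34 named members in each genotype at day 14, and the percent of reads on the other strand. Chance gives about 1 in 20. It picked out 6 groups, all of knockouts. ZNF132-DT had 20.7 CPM in line 2 C against 3.65 to 5.25 in the others, and ST8SIA5-DT 24.5 CPM in line 1 A against 10.5 to 13.0. RPAP3-DT had 4.56 CPM in line 1 C against 0 to 1.40, and UVRAG-DT 3.82 CPM in line 2 C against 0.314 to 1.46. FBXO38-DT had 12.3 CPM in line 1 A against 6.27 to 7.95, and ZNF584-DT 15.6 CPM in the same library against 1.46 to 4.39. For ZNF132-DT and ST8SIA5-DT the high library lies in the direction of the rise, and for RPAP3-DT and UVRAG-DT it lies against the fall.

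The knockout's change in NQO1-DT differed between the stages by -1.13 on the log2 scale (SE 0.26, adjusted p = 0.0215, edgeR interaction test), with 0.27 at day 0 and -0.85 at day 14. At day 14 all 6 knockout libraries were below all 6 controls.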

How the results depend on the processing

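The limits are few libraries per line, 2 lines per genotype and low counts: 48 members had a mean under 10 CPM. At day 14 the count of called members was 35. It was 18 with counts summed per line, 3 in 1 fit of all 24 libraries, 20 without control line 1, 14 without control line 2, 20 without BRAT1_KO line 2 and 16 with a covariate, the wrong-strand percent. It stayed within 1.5 times under the other alternatives, DESeq2 (35) and RLE scaling (35) included. Leaving out 1 library gave 27 to 38 called members at day 14, 0 at day 0, 0 to 1 between knockout lines, 0 to 1 between control lines, and 0.637 to 0.893 percentage points for the wrong-strand difference. The day 0 count of 0 held under all alternatives run. The number of members was within 1.5 times of 134 at minimums of 5 and 20 reads. The cause of these changes was not tested, beyond the fewer samples in the fits that leave a line out.

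With the replicate letter as a block (replicate block), 32 members were called at day 14, 0 at day 0, 2 between knockout lines against 0 without it, and 1 between control lines. The letters do not pair the samples at day 14: deviations of same-letter libraries correlated at -0.223 to 0.133, and 2 of 12 libraries correlated best with their own letter. At day 0 the correlations were 0.0849 to 0.295 and all 12 correlated best with their own letter, a hint from the data and not from the design.

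Of 31 named members tested, the direction turned in 9, none of them called. ZNF584-DT (0.01) was -0.00116 with RLE scaling, -0.0029 without features above 1 percent of counts, -0.0763 with no filter, -0.19 with the block, -0.0166 with DESeq2, -0.24 summed per line, -0.52 without control line 1 and -0.45 without BRAT1_KO line 1, and -0.77 to 0.17 without 1 library (-0.0699 without control line 1 C). ZNF582-DT (0.11) was -0.11 summed per line, -0.11 without control line 1, -0.0719 without BRAT1_KO line 1 and -0.0436 to 0.23 without 1 library (-0.0029 without BRAT1_KO line 1 A). USP34-DT was 0.0549 without BRAT1_KO line 2, 0.18 with the covariate and -0.17 to 0.00138 without 1 library; H2AZ1-DT was 0.12 without BRAT1_KO line 2 and 0.0172 with the covariate, and WDR5B-DT 0.0121 with the covariate. FBXO38-DT was 0.51 and ZNF470-DT -0.36 without control line 2; ZNF470-DT was -0.0913 and RSL1D1-DT 0.0577 without BRAT1_KO line 1, and ZNF691-DT -0.00106 summed per line. Over all 739 refits of named members 111 lost a call and 11 gained one.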
